A study of Drosophila melanogaster with 38 samples.

Results

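The O-GlcNAc peaks described here lay on the autosomes of Drosophila melanogaster within 1000 bp of a site where the enzyme OGA was mapped to chromatin. They were chosen by position alone: the gap between the nearest edges of an O-GlcNAc peak and an OGA interval on the same chromosome had to be at most 1000 bp, with overlap counted as 0, and peaks on the X chromosome and on the heterochromatin sequences were left out. This gave 434 peaks, called OGA-near peaks below, of 1661 autosomal peaks (26.1%) and of 1883 peaks in the whole list (23.0%). The other 1227 autosomal peaks serve as the comparison.

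O-GlcNAc is a single sugar on serine and threonine side chains of proteins in the nucleus and cytoplasm, put on by O-GlcNAc transferase and cut off by the hydrolase O-GlcNAcase (OGA). In flies the transferase is the product of the Polycomb group gene super sex combs, and Polycomb proteins are among the chromatin proteins that carry the sugar. In O-GlcNAc-seq, larvae eat an azide-bearing sugar, the azides on fixed chromatin are coupled to biotin by a click reaction, and the DNA bound by labelled proteins is purified on streptavidin and sequenced.

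The study set OGA knockout (OGA-null) larvae against wild-type Oregon R (WT) larvae in a pulse-chase. Eggs of both genotypes were laid on food with 150 uM Ac4GalNAz, the larvae stayed on it for 36 h, and they were then collected at once or moved to DMSO food for 4, 8, 12, 16, 20, 24 or 36 h. The labels describe 2 biological replicates for each genotype and time, each from pooled whole larvae, so every value mixes tissues and, over the chase, larvae of increasing age. The knockout is an earlier published line whose allele and background the labels do not give. OGA was mapped by ChIP-seq in 1 OGA-null library and 1 WT library, and 1 list of intervals stands for both. That list does not say which library gave an interval, so a site near OGA here means a site near an interval of that list, which may have come from larvae without the enzyme.

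The deposited signal has 1 column per genotype and chase time, and each column already combines both replicates. The values below therefore carry no replicate error and the depth behind them is unknown. No source used here gives how the columns were scaled to each other, and every comparison between times or genotypes rests on that scaling. Lists of 8 values below run in the order of the chase, with hours 0, 4, 8 and 12 first, then 16, 20, 24 and 36. Signal grew with peak width, with a Pearson's r of 0.990 between the logarithms in the WT 0 h column over 1883 peaks, so levels are given as signal per base of the peak.

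OGA-near peaks lay close to OGA by the rule that chose them, but few overlapped an OGA interval. The gap of the OGA-near peaks had a median of 245.5 bp, quartiles of 24 and 631 bp and a maximum of 991 bp. Of the 434 peaks, 72 overlapped an OGA interval and 1 more touched one. The overlaps were short, with a median of 14.5 bp and a range of 1 to 264 bp, because both kinds of interval were short: OGA intervals near these peaks had a median width of 16 bp and a maximum of 192 bp, and the peaks themselves had a median width of 35 bp. In 34 peaks each overlapping OGA interval lay entirely inside the O-GlcNAc peak, and in 6 the O-GlcNAc peak lay inside an OGA interval. OGA lay on the side of lower coordinates alone in 167 peaks, on the side of higher coordinates alone in 170 and on both sides in 36, and the other 61 had OGA by overlap only.

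Most OGA-near peaks had a single OGA interval within 1000 bp: 342 had 1, 71 had 2 and 21 had 3 or more. Seen from OGA, 426 of 2878 autosomal OGA intervals (14.8%) lay within 1000 bp of an O-GlcNAc peak, and 89 of these lay near several. Peaks that share an OGA interval are not independent of each other: 167 OGA-near peaks fell into 68 such groups. The 5 peaks with the most OGA had 5 intervals each. They lay on 3R at 7780956 to 7781055, on 3L at 3198998 to 3199057, on 2R at 16161881 to 16162025 and on 3L at 4820019 to 4820069 and 4820105 to 4820165, the last pair side by side. All positions are those of the deposited lists in dm3, counted from 1, and no gene is named for them because an annotation of that build was not used here.

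**Figure D1:**
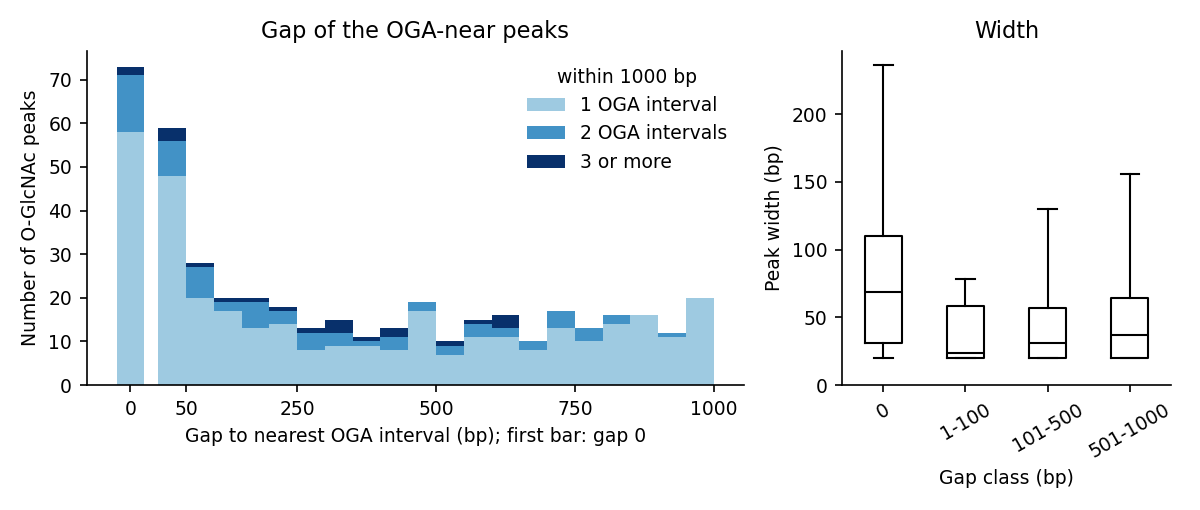
Left, number of OGA-near peaks by gap to the nearest OGA interval in bp, in bins of 50 bp after a first bar for gap 0, stacked by the number of OGA intervals within 1000 bp. Right, peak width in bp by gap class (line, median; box, quartiles; whiskers, 5th to 95th percentile). The bar at gap 0 holds 73 peaks, and those peaks had a median width of 69 bp, against 24 bp at gaps of 1 to 100 bp.

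OGA-near peaks were spread over the 4 large arms and were of ordinary width. They made up 118 of 408 peaks on 3L (28.9%), 133 of 482 on 3R (27.6%), 90 of 373 on 2L (24.1%) and 93 of 397 on 2R (23.4%), and the single peak on chromosome 4 was not among them. Their median width was 35 bp, against 36 bp for other autosomal peaks, and 161 of them (37.1%) had the smallest width of 20 bp, against 440 of the others (35.9%). Peaks over 100 bp were 55 of the OGA-near peaks (12.7%) and 199 of the others (16.2%). Peaks at gap 0 were the wide ones. Gap and width are linked by construction, since a wider peak has more bases that can meet an interval.

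They also had closer O-GlcNAc neighbours. The nearest other O-GlcNAc peak was at a median of 2138 bp for OGA-near peaks and at 4034 bp for other autosomal peaks. A neighbour within 1000 bp was present for 165 OGA-near peaks (38.0%) and for 369 of the others (30.1%). Chained over steps of at most 10000 bp, the 434 peaks formed 275 groups, of which 188 were single peaks and 10 held 5 or more. These are descriptions of positions, and no test of them was made.

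At the end of feeding the OGA-near peaks carried less signal in OGA-null larvae than in WT larvae, and at every later time they carried more. The median signal per base over the chase was 22.6, 21.9, 17.0, 14.0, 11.2, 6.82, 2.63 and 1.48 in OGA-null larvae. The WT medians were 32.4, 15.4, 10.3, 5.22, 4.23, 2.54, 1.02 and 0.198. At 0 h no OGA-near peak had more signal in OGA-null larvae, against 0.159% of all peaks. At 4 h 432 of the 434 did (98.8% of all peaks), and at 8 h again 432 (99.4% of all peaks). At 12 h (100% of all peaks), 16 h (100%), 20 h (99.8%) and 36 h (100%) all 434 did, and at 24 h 426 did (99.4% of all peaks). The reversal after 0 h was thus a property of nearly the whole list, OGA-near or not.

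The genotypes parted in the first 12 h and between 24 and 36 h, not in between. From 0 to 4 h the median OGA-near peak kept 96.7% of its signal in OGA-null larvae and 47.0% in WT larvae. From 4 to 8 h it kept 77.5% in OGA-null larvae and 67.3% in WT larvae, and from 8 to 12 h 82.9% in OGA-null larvae and 51.1% in WT larvae. From 12 to 16 h the medians were 81.3% in OGA-null larvae and 81.5% in WT larvae, from 16 to 20 h 61.0% in OGA-null larvae and 58.4% in WT larvae, and from 20 to 24 h 39.0% in OGA-null larvae and 40.1% in WT larvae. In these 3 steps the medians of the genotypes lay within 3 percentage points. Over the last step, 24 to 36 h, the medians were 55.2% in OGA-null larvae and 19.3% in WT larvae. The median ratio of OGA-null to WT signal followed the same course: over the chase it was 0.697, 1.43, 1.65, 2.65, 2.56, 2.64, 2.60 and 7.61. The last value is over 431 peaks, because 3 OGA-near peaks were at 0 in the WT 36 h column.

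**Figure D2:**
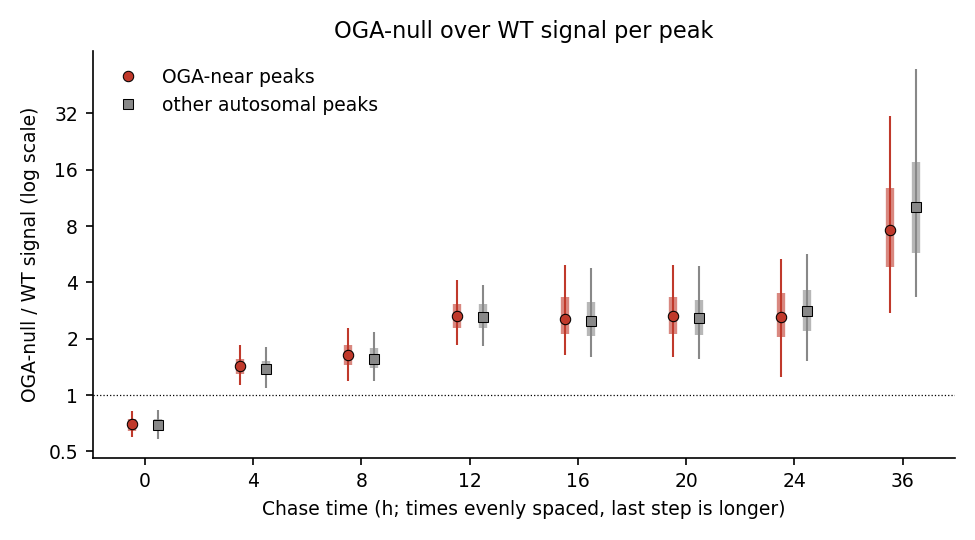
Ratio of OGA-null to WT signal per peak (log scale) at each chase time in h, for OGA-near peaks (red circles) and other autosomal peaks (grey squares); symbols are medians, thick lines quartiles and thin lines the 5th to 95th percentile. The OGA-near median was 0.697 at 0 h, lay between 2.56 and 2.65 from 12 to 24 h and was 7.61 at 36 h, where that of the others was 10.1.

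Some OGA-near peaks had more signal after 4 h of chase than at its start in OGA-null larvae. This held for 171 of the 434 (39.4%), for 547 of the other autosomal peaks (44.6%) and for 43.8% of all peaks. At 8 h it held for 5 OGA-near peaks (1.15%), against 1.12% of all peaks. Width went with it: the median share kept at 4 h in OGA-null larvae was 93.8% at peaks of 20 bp, 95.5% at 21 to 50 bp, 96.0% at 51 to 100 bp and 102.8% above 100 bp.

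The loss of label was slower in OGA-null larvae at most OGA-near peaks by the fitted rate, but that call depended on the 0 h columns. A line in log2(signal + 1) was fitted per peak over 0 to 24 h with limma, so that the error comes from the scatter of chase times about the line and not from replicates. The apparent half-life was longer in OGA-null larvae at all 434 peaks, with a median of 8.45 h (5th to 95th percentile 6.88 to 10.6 h) in OGA-null larvae and 5.22 h (4.47 to 6.07 h) in WT larvae. The difference of slopes passed an adjusted p of 0.05 (limma, Benjamini-Hochberg over 1883 peaks) at 284 OGA-near peaks (65.4%), against 72.2% of all peaks. Without the 0 h columns none of the 434 passed with limma (60 at an unadjusted p under 0.05) and none of all 1883 (251 unadjusted), although the OGA-null slope stayed the less negative at 414 of the 434. Over 0 to 16 h alone 427 passed (98.4%), against 98.1% of all peaks, and over all 8 times 403 (92.9%), against 95.1% of all peaks. The share called was 51.6% at peaks of 20 bp and 87.3% above 100 bp, and 79.5% at gap 0, where peaks were wide. Shares by width class were not taken over all peaks. When only peaks wider than 20 bp were fitted, 76.6% of the OGA-near peaks and 80.6% of all such peaks were called. Calls by gap were not separated from width.

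Compared with the other autosomal peaks, OGA-near peaks kept slightly less label in both genotypes at most times and more only in WT larvae at the end. At 16 h the median OGA-near peak kept 49.2% of its 0 h signal in OGA-null larvae, and the median other peak kept 51.6% there. In WT larvae these values were 12.8% for OGA-near peaks and 13.9% for the others. By width, the OGA-null difference at 16 h lay mainly at peaks of 51 to 100 bp, with 49.2% near OGA and 54.2% elsewhere. At 20 bp the medians were 48.2% near OGA and 48.3% elsewhere, and at 21 to 50 bp 48.9% in both. Above 100 bp they were 56.3% near OGA and 56.1% elsewhere. In WT larvae the OGA-near median at 16 h was the lower in each width class. In OGA-null larvae the OGA-near median was the lower at all 7 chase times after 0 h, by the most percentage points at 16 h. In that genotype the OGA-near peaks above the median of the others ranged from 172 (39.6%) at 24 h to 208 (47.9%) at 20 h. In WT larvae the OGA-near median was the lower from 4 to 20 h. At 4 h 173 peaks (39.9%) lay above the median of the others. At 12 h the WT medians were nearly equal, 16.31% near OGA and 16.36% elsewhere, with 213 peaks (49.1%) above. These differences between medians were not tested. Single OGA-near peaks kept 33.9 to 69.1% (5th to 95th percentile) in OGA-null larvae and 6.46 to 22.7% in WT larvae at 16 h.

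**Figure D3:**
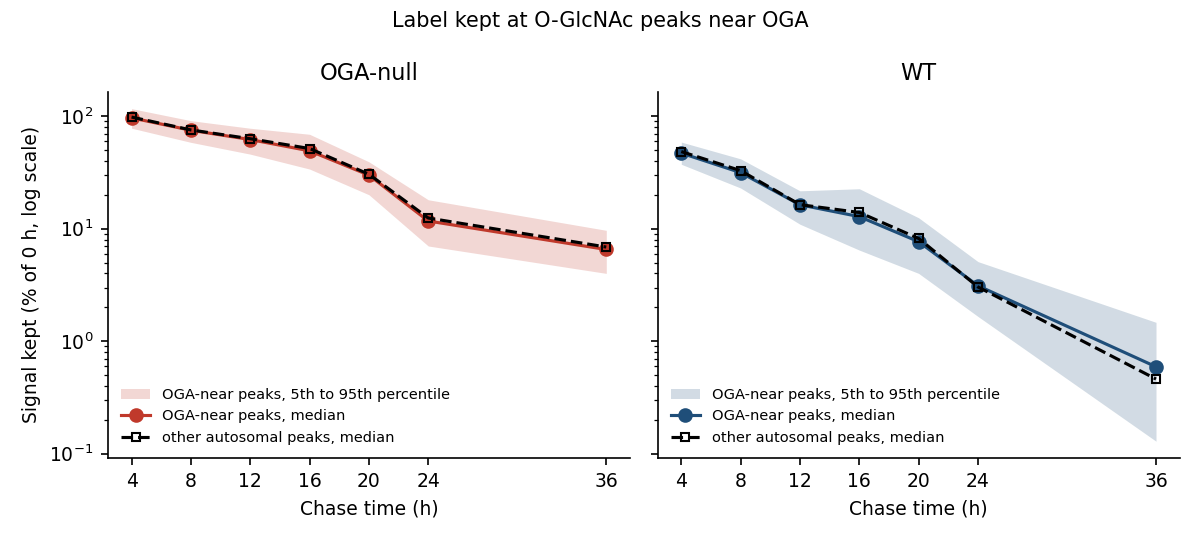
Signal kept (percent of the 0 h signal, log scale) against chase time in h in OGA-null (left) and WT larvae (right); filled circles are medians of the OGA-near peaks, the band their 5th to 95th percentile and open squares the medians of other autosomal peaks. At 36 h the OGA-near median was 6.54% in OGA-null and 0.593% in WT larvae, and that of the others was 6.87% in OGA-null and 0.461% in WT larvae.

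The end of the WT chase was the exception. At 24 h OGA-near peaks kept a median of 3.11% in WT larvae, against 3.04% at other autosomal peaks. At 36 h OGA-near peaks kept a median of 0.593% of their 0 h signal in WT larvae, against 0.461% at other autosomal peaks, and 272 of the 434 (62.7%) lay above the median of the others. In signal per base this is 0.198 for OGA-near peaks and 0.159 for the others. The values are close to nothing: 3 OGA-near peaks (0.691%) and 29 of the others (2.36%) were at 0. In OGA-null larvae at the same time the order was the opposite, with 6.54% kept at OGA-near peaks and 6.87% at the others. The ratio of OGA-null to WT signal at 36 h was accordingly lower near OGA, with a median of 7.61 at OGA-near peaks and 10.1 at the others. No replicate error exists for these columns, so the difference was not tested.

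This WT difference was found at narrow and not at wide peaks, and went on changing beyond the limit of 1000 bp. The share kept at 36 h in WT larvae was 0.687% at OGA-near peaks of 20 bp and 0.529% at other peaks of that width. At 21 to 50 bp it was 0.645% near OGA and 0.497% elsewhere, and at 51 to 100 bp 0.580% near OGA and 0.399% elsewhere. Above 100 bp it was 0.334% near OGA and 0.369% elsewhere, the opposite order. By gap, the WT 36 h signal per base had a median of 0.180 at gap 0, 0.179 at gaps of up to 100 bp, 0.226 above that and up to 500 bp, and 0.195 from there to 1000 bp. Past the limit it was 0.180 up to 5000 bp, 0.154 up to 20000 bp and 0.125 farther away. Peaks at 0 in that column were 15 of the 306 in the farthest class (4.90%). Spearman's rho between gap and WT 36 h signal per base was -0.21 over the 1661 autosomal peaks, which share 1 column and its depth, and 0.023 over the 434 OGA-near peaks, so within 1000 bp no trend was seen. In OGA-null larvae rho at 36 h was 0.12 over the autosomal peaks.

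**Figure D4:**
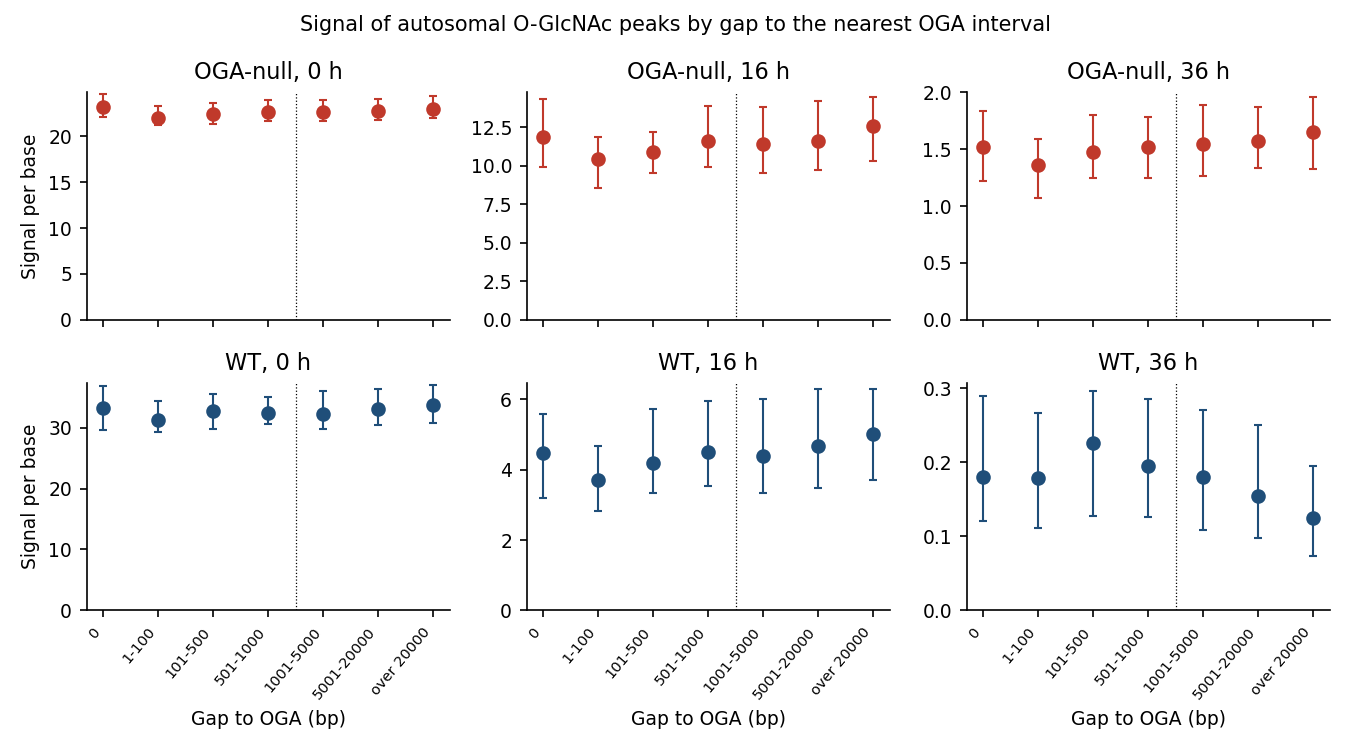
Signal per base of autosomal peaks by gap to the nearest OGA interval (bp) at 0, 16 and 36 h of chase in OGA-null (top) and WT larvae (bottom); points are medians, bars quartiles, and the dotted line marks 1000 bp. In WT larvae at 36 h the median was 0.226 for gaps over 100 and up to 500 bp and 0.125 above 20000 bp, while in OGA-null larvae it was 1.48 and 1.65 in the same classes.

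Gap, number of OGA intervals and width set apart the OGA-near peaks to different degrees. By number of OGA intervals, the median share kept at 16 h was 48.9% with 1, 50.9% with 2 and 53.6% with 3 or more in OGA-null larvae. It was 12.7%, 13.0% and 14.6% for the same classes in WT larvae. The rise from 1 to 2 intervals recurred at some other times and was absent at others. At 20 h the shares in the same order were 29.7, 29.6 and 32.5% in OGA-null larvae and 7.62, 7.53 and 9.71% in WT larvae. The 21 peaks with 3 or more were also wider, with a median of 51 bp against 34.5 bp with 1. Of width and gap, width had the clearer relation to signal per base at 0 h. Spearman's rho there over the 434 peaks was 0.43 in OGA-null and 0.47 in WT larvae for width. For gap it was -0.018 in OGA-null and 0.049 in WT larvae. At 36 h rho between width and signal per base was 0.23 in OGA-null and -0.13 in WT larvae. With the share kept at 16 h, rho was 0.16 in OGA-null and 0.052 in WT larvae for width. For gap it was 0.11 in OGA-null and 0.10 in WT larvae. The order of the peaks was partly shared by the genotypes, with a rho of signal per base between OGA-null and WT larvae of 0.53 at 0 h, 0.56 at 16 h and -0.059 at 36 h.

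The 5 peaks with the longest overlap with OGA ranged widely in how much label they kept. The longest overlap, 264 bp, belonged to the widest OGA-near peak, 557 bp on 3L at 9369687 to 9370243, which had 2 OGA intervals. Its signal per base over the chase was 30.9, 33.4, 27.3, 22.6, 16.2, 11.5, 3.79 and 2.09 in OGA-null larvae. The WT values were 52.1, 25.1, 16.2, 8.27, 5.19, 2.99, 1.15 and 0.125. It was thus above the OGA-near median at each time in OGA-null larvae, and in WT larvae at each time but the last. The next overlaps were 155 bp on 3R at 25702699 to 25702893, 112 bp on 3R at 21822542 to 21822759, 68 bp on 3R at 11070500 to 11070750 and 65 bp on 3R at 15601903 to 15601969. These 5 kept between 40.0 and 57.8% at 16 h in OGA-null larvae and between 7.64 and 13.4% in WT larvae. At 36 h they kept between 5.59 and 10.4% in OGA-null larvae and between 0.196 and 0.892% in WT larvae, values on both sides of the median of all OGA-near peaks.

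The peak with the most signal per base in WT larvae at 0 h did not overlap OGA. It was 358 bp wide, on 3R at 26591380 to 26591737, with 1 OGA interval at 298 bp. Over the chase it carried 33.0, 37.8, 28.9, 27.0, 20.9, 13.2, 5.24 and 2.91 per base in OGA-null larvae. In the WT columns it carried 57.3, 26.9, 20.7, 9.63, 8.73, 4.77, 1.62 and 0.145. After the 557 bp peak on 3L at 52.1, the next by this measure were on 2L at 850968 to 851102 with 49.3, on 3R at 21831678 to 21831907 with 48.2 and on 3R at 25319142 to 25319269 with 46.4. All 5 were over 100 bp wide, and in WT larvae at 36 h all 5 were below the OGA-near median per base, between 0.125 and 0.159. The lowest at 0 h in WT larvae were 23.5 on 2R at 2524597 to 2524635, 25.2 on 3R at 17189133 to 17189152 and 25.4 on 3R at 19875330 to 19875349, all under 40 bp wide. Another of the widest peaks, 369 bp on 3L at 9375210 to 9375578, had 26.2 in OGA-null and 37.6 in WT larvae at 0 h.

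The 5 named peaks with 5 OGA intervals each had more signal than the median at the start. Ties in the number of intervals were broken by higher WT 0 h signal per base, so that signal took part in the choice. These 5 peaks were 51 to 145 bp wide, against an OGA-near median of 35 bp, and signal per base went with width. The one on 3R at 7780956, 100 bp wide and 320 bp from OGA, had 27.8, 31.0, 20.9, 22.7, 14.2, 9.13, 2.998 and 1.83 per base over the chase in OGA-null larvae. The WT values of this peak were 43.1, 20.2, 12.9, 8.52, 4.58, 3.32, 1.81 and 0.330. At 0 h the 5 lay between 23.2 and 27.8 in OGA-null larvae and between 33.9 and 43.1 in WT larvae, above the medians of 22.6 and 32.4. At 36 h in WT larvae 4 of them lay between 0.324 and 0.337, above the median of 0.198, and the one on 2R at 16161881 had 0.076.

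Each column was then centred on its median over all 1883 peaks. In the 0 to 24 h fit few OGA-near peaks were called as losing label at a rate of their own. Centring removes any factor common to a column, and the slope then says how fast a peak lost label relative to the median peak. In WT larvae 6 OGA-near peaks were called faster at an adjusted p of 0.05 by limma (1.38%), against 1.12% of all peaks. None was called slower, against 0.266% of all peaks. In OGA-null larvae none was called faster (0% of all peaks) or slower (0.0531% of all peaks). The genotypes' relative slopes were called different at none in either direction (0% of all peaks in both). At an unadjusted p under 0.05, limma picked 75 OGA-near peaks (17.3%) in WT larvae, 39 (8.99%) in OGA-null larvae and 33 (7.60%) for the genotype difference. Over all peaks these shares were 17.3% in WT larvae, 10.9% in OGA-null larvae and 7.22% for the difference. The shares near OGA were close to the background in each.

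**Figure D5:**
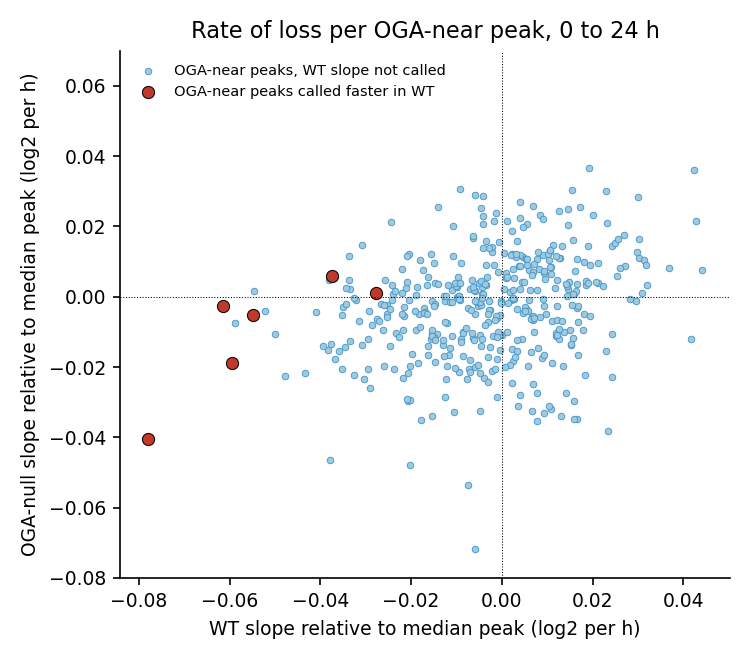
Slope of each OGA-near peak over 0 to 24 h relative to the median peak (log2 per h), OGA-null larvae on the vertical and WT larvae on the horizontal axis; a value below 0 is a faster loss than the median peak, and red points are the 6 peaks called faster in WT larvae. The 6 lie between -0.078 and -0.028 in WT larvae and between -0.040 and 0.006 in OGA-null larvae.

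The 6 peaks called faster in WT larvae were short and long, near and far. The steepest was 27 bp on 3R at 18873552 to 18873578, 10 bp from OGA. Its signal per base over the chase was 21.8, 18.4, 12.1, 8.73, 7.54, 4.72, 1.06 and 0.851 in OGA-null larvae. For WT larvae the values were 28.4, 12.1, 6.07, 2.90, 2.90, 0.531, 0.241 and 0.199. It was below the OGA-near median at each time in OGA-null larvae, and in WT larvae at each time but 36 h, where it matched the median of 0.198. Its relative slope was -0.040 ± 0.016 log2 per h in OGA-null larvae (SE, limma adjusted p 0.361) and -0.078 ± 0.016 in WT larvae (limma adjusted p 0.0133).

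Next came 46 bp on 3R at 11071153 to 11071198, 521 bp from OGA. Over the chase it had 23.0, 26.7, 18.2, 14.8, 13.8, 7.38, 2.72 and 1.37 per base in OGA-null larvae. Its WT values were 31.6, 18.1, 11.2, 6.33, 3.54, 1.94, 0.290 and 0.179. Here the WT values started near the OGA-near median, were above it at 4 to 12 h and fell short of it from 16 h on. Its relative slope was -0.0026 ± 0.014 in OGA-null and -0.062 ± 0.014 in WT larvae (limma adjusted p 0.0247 in WT). The others were 20 bp on 2L at 21716948 to 21716967 (gap 334 bp), 51 bp on 3R at 26650093 to 26650143 (gap 0), 128 bp on 3R at 25319142 to 25319269 (gap 878 bp) and the 557 bp peak on 3L at 9369687 (gap 0). Their WT relative slopes were -0.060 ± 0.014, -0.055 ± 0.014, -0.038 ± 0.0086 and -0.028 ± 0.0052 log2 per h in that order. The 3R peak at 26650093 was named after its values were seen.

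All 6 had low WT signal at 24 h for where they began. This follows in part from the call itself, since the fit ended at 24 h. Only the 557 bp peak exceeded the OGA-near median of 1.02 at that time, with 1.15 from a start of 52.1, and the other 5 lay between 0.241 and 0.713. The calls moved with the times fitted: without the 0 h columns 2 OGA-near peaks (0.461%) were called faster in WT larvae, against 0.319% of all peaks. Over 0 to 16 h 24 were (5.53%), against 4.78% of all peaks, and over all 8 times 46 (10.6%), against 16.1% of all peaks.

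The differences of relative slope between the genotypes did not pass the adjusted threshold even at the peaks where they were largest. Upward, with the OGA-null slope the higher, these were the 3R peak at 11071153 with 0.059 ± 0.019 log2 per h (SE, limma adjusted p 0.491), 21 bp on 2R at 4788552 to 4788572 with 0.056 ± 0.033 and 20 bp on 2L at 1730427 to 1730446 with 0.051 ± 0.036. Downward they were 20 bp on 3R at 5234892 to 5234911 with -0.066 ± 0.028, 28 bp on 2R at 11623639 to 11623666 with -0.061 ± 0.019 and 30 bp on 2R at 10136729 to 10136758 with -0.054 ± 0.016. Several exceeded their standard error severalfold, and the unadjusted limma p was 0.00560 at the first of the upward and 0.0256, 0.00389 and 0.00278 at the downward peaks in the order given. After adjustment over all peaks the smallest limma p among the 6 was 0.436. Some smaller differences had a lower adjusted p, still above the threshold. At the 557 bp peak on 3L the difference was 0.029 ± 0.0074 log2 per h (limma adjusted p 0.308). At the 3R peak at 25319142 it was 0.043 ± 0.012 (limma adjusted p 0.352). The 3R peak at 5234892 had the steepest relative slope of all OGA-near peaks in OGA-null larvae, -0.072 ± 0.020, with 0.512 per base at 24 h there against a median of 2.63.

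Across the OGA-near peaks the relative slopes leaned below 0 in both genotypes. They were below 0 at 244 (56.2%) in OGA-null larvae and at 240 (55.3%) in WT larvae. Among other autosomal peaks they were below 0 at 578 (47.1%) in OGA-null larvae and at 670 (54.6%) in WT larvae. The lean relative to the other peaks was thus in the OGA-null slopes, with a median of -0.0021 log2 per h at OGA-near peaks and 0.0012 at the others. This shift was not tested. Spearman's rho between the relative slopes of the genotypes was 0.28 over the 434 peaks.

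The group with the most OGA-near peaks, chosen after its values were seen, held 9 within 1307 bp on 3R at 11070305 to 11071611. Its OGA consisted of 66 bp at 11070517 to 11070582 and 2 bp at 11070630 to 11070631. The medians of the 9 over the chase were 22.4, 23.3, 15.9, 14.4, 10.2, 5.90, 2.38 and 1.37 per base in OGA-null larvae. Their WT medians were 31.8, 14.7, 9.70, 5.06, 2.69, 1.92, 0.926 and 0.083. Late in the chase the group was low in both genotypes. At 36 h the share kept was below the OGA-near median at 8 of the 9 peaks in OGA-null larvae and at 9 of 9 in WT larvae, and at 16 h at 6 of 9 in OGA-null and at 8 of 9 in WT larvae. The relative slope was below 0 at 9 of 9 in OGA-null larvae, none of them called, and at 8 of 9 in WT larvae, 1 of them called. The 9 peaks share their OGA and lie side by side, so they count as 1 site. Next in number was a stretch of 26463 bp on 3L at 4815586 to 4842048 with 8 OGA-near peaks and 19 OGA intervals, which holds the adjacent pair of peaks with 5 intervals each; its median share kept at 16 h was 46.6% in OGA-null and 10.5% in WT larvae.

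The peaks named on either side of the limit overlapped in the share of label kept at 16 h. They are few, and likeness across the limit was not tested. Just inside it were 3L at 21818027 to 21818120 (gap 991 bp), 3L at 5802890 to 5802961 (989 bp) and 3R at 21831678 to 21831907 (987 bp). They kept 49.4, 55.7 and 63.5% at 16 h in OGA-null larvae and 12.6, 21.7 and 16.0% in WT larvae. Just outside it were 3L at 12517843 to 12517910 (gap 1003 bp), 2R at 10096064 to 10096171 (1006 bp) and 3R at 11071638 to 11071657 (1006 bp), the last right beside the group of 9. They kept 52.5, 73.9 and 48.5% in OGA-null larvae and 9.71, 23.8 and 5.79% in WT larvae, a range that covers the values just inside.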

How the data were processed

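The OGA-near peaks, the classes and the tests were chosen with earlier results of these data known. Per the file headers, the authors' deposited table gives signal per peak in 16 columns, 1 for each genotype and chase time, each combining replicates 1 and 2. Tests across libraries, replicate spread and leaving out replicates were therefore not possible. The authors' OGA list holds 3534 intervals without a score. SAMtools, bedtools 2.17.0, dm3 and sacCer3 appear, without roles, in the submitters' processing notes. The aligner, peak caller, thresholds and scaling were not given in the sources used here. No column of values was left unused (0), and the 4 unfed libraries, which have no column, were not analysed here.

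Signal was divided by peak width for levels and by the same peak's 0 h signal for shares kept. Rates were fitted with limma 3.58.1 (R 4.3.3) on log2(signal + 1) over 0 to 24 h, as a line per genotype with a moderated test, an intensity trend and Benjamini-Hochberg adjustment over all 1883 peaks. Relative slopes come from the same fit after subtracting each column's median over all peaks. The 36 h columns were kept out because WT values there were near 0. The p-values measure scatter of chase times about a line. Chase times are not replicates, and loss that is not exponential adds to the scatter. A half-life is -1 divided by the slope and is apparent. The fit was also run on simulated data with the same spread of noise at every peak and time. Standard errors in the real data differed with width, so that run does not give the rate of false calls here. Gaps and classes were computed with Python 3.11.15 and pandas 2.3.3. Correlations are across peaks, which are not independent, and carry no p.

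Peaks were named by rule: the 5 with the most OGA intervals, the 5 longest overlaps, the 3 widest, the 5 highest and 3 lowest in WT 0 h signal per base, up to 3 called in each direction per genotype, the 3 largest genotype differences each way, and 3 on either side of the gap limit. Ties in the number of OGA intervals were broken by the higher WT 0 h signal per base. Alternatives varied the pseudocount, the times fitted, the width filter, the variance model, the centring and the gap limit.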

Additional observations from a re-analysis of the deposited data

Results flagged for a closer look

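The loss of label over chase hours differed between the genotypes by a test of the difference itself, the OGA-null slope minus the WT slope in limma. That difference passed at 284 of the 434 OGA-near peaks, in each case with the slower loss in OGA-null larvae, and its median over the 434 was 0.073 log2 per h, against 0.076 at other autosomal peaks. The median half-life ratio of OGA-null to WT larvae was 1.63 at OGA-near peaks and 1.67 at the others. The share called, 65.4%, was below the 72.2% of all peaks, and no peak was called without the 0 h columns. The p measures scatter of chase times about a line and not replicate error. All calls share the same combined columns and their unknown scaling. Centring each column on its median removes a difference shared by all peaks, so the centred fit bears only on differences between peaks. In it no genotype difference of slope was called at any of the 1883 peaks over 0 to 24 h. Over all 8 times 14 of them (0.743%) were called.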

How the results depend on the processing

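No paired analysis was possible because each column combines both replicates, and for the same reason no replicate could be left out. The median share kept shifted by -3.06 to 2.69% of its value with a gap of up to 500 bp, by -2.62 to 2.53% with one of up to 2000 bp, by -5.76 to 3.38% among peaks wider than 20 bp and by -13.8 to 4.83% among peaks overlapping OGA. The median genotype ratio kept its direction at each time under these settings. The share of OGA-near peaks called slower in OGA-null larvae was 65.4% as reported (72.2% of all peaks). It was 0% with 0 h left out (0% of all peaks) and 98.4% over 0 to 16 h (98.1% of all peaks). With fewer columns the lines differ, and the cause was not tested. The share called faster in WT larvae was 1.38% as reported (1.12% of all peaks). It was 10.6% over all 8 times (16.1% of all peaks), 0.461% without 0 h (0.319%) and 5.53% over 0 to 16 h (4.78%). Without an intensity trend it was 0.691% (0.319% of all peaks). Among peaks overlapping OGA it was 2.78%, only 2 of 72, against 1.12% of all peaks in the same fit. The share called slower in WT larvae was 0 as reported (0.266% of all peaks). It was 6.45% over all 8 times (5.58% of all peaks) and 1.38% over 0 to 16 h (2.50% of all peaks). Among peaks wider than 20 bp it was 0.366% (1.16% of all such peaks). With a gap of up to 2000 bp it was 0.164%, or 1 peak, against 0.266% of all peaks. The genotype difference in relative rate was called at 0.230% (1 peak) over all 8 times, against 0.743% of all peaks. Over all peaks, all 8 times gave 303 calls of faster loss in WT larvae (16.1%) against 21, so the share near OGA was then below the background. Merging OGA intervals closer than 500 bp left 40 peaks with more than 1 interval, against 92. Pseudocounts of 0.1 and 10 gave counts within 1.5 times of those reported for each rate. Centring on peaks away from OGA, which bears on relative rates only, gave 5 peaks called faster in WT larvae, against 6. Values near 0, as in WT larvae at 36 h, have no known counting error, since the depth is unknown.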
